A study of Mus musculus with 10 samples.

Results

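Glucose that is filtered in the kidney is taken back by the proximal tubule, and the same cells make new glucose from lactate, glutamine and glycerol. The genes described here are 6 that carry out these tasks, Slc5a2, Slc5a1, Slc2a2, Pck1, Fbp1 and G6pc, chosen by name. All 6 were among the 54532 genes of the deposited table and among the 13435 genes tested, those with a mean of at least 1 FPKM (fragments per kilobase of gene length, scaled to sequencing depth) over all libraries. As background, the sodium-coupled transporters SGLT2 (Slc5a2) and SGLT1 (Slc5a1) bring glucose in from the tubular fluid, SGLT2 in the early and SGLT1 in the late proximal tubule, and GLUT2 (Slc2a2) lets it out towards the blood. In gluconeogenesis Pck1 makes phosphoenolpyruvate from oxaloacetate, Fbp1 removes a phosphate from fructose bisphosphate, and G6pc frees glucose from glucose phosphate. Proximal tubules lose such transport and metabolic functions when a kidney is obstructed.

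The mice had gone through 10 days of unilateral ureteral obstruction (UUO), in which the outflow of 1 kidney is blocked. Messenger RNA of 5 Padi4-knockout kidneys and of 5 wild-type (WT) kidneys was sequenced, and all 10 are labelled UUO, so no value here shows what obstruction did. Padi4 encodes an enzyme that turns arginine into citrulline in proteins such as histones. The sources used here do not give strain, sex, age, the way Padi4 was deleted or whether each library is a separate animal, so p-values measure the spread between these libraries.

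Padi4 measured 0.256 FPKM ± 0.164 in knockout and 0.358 FPKM ± 0.183 in wild-type kidneys (SD, n = 5 each), on 6 to 47 reads per library, and this did not separate the labels (exact two-sided permutation p = 0.373). "Knockout" therefore stands for the libraries labelled so. Library totals were 15002922 to 16886945 reads. Wild type 1 stood apart, at -22.8 on the first principal component of the 500 most variable genes (33.7% of their variance), where the other 9 libraries lay between -6.18 and 11.4. It had the highest value of all 10 libraries in 19.8% of the genes tested, and its size factor was 0.859, against 0.977 to 1.06 in the others. Mitochondrial genes took 8.11% of its reads, against 3.18% to 5.79% in the others. Results are therefore given with and without this library.

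No gene of the table passed the threshold between the genotypes, and neither did any of the 6. With all libraries, 5 of the 6 had higher mean log2(FPKM + 1) in knockout than in wild-type kidneys, with a median difference of 0.08, against 0.0051 over all genes tested. Limma called 0 of the 6 at a Benjamini-Hochberg adjusted p of 0.05, and 0% of all genes tested. At an unadjusted p under 0.05 it called 0 of the 6, and 4.05% of all genes. Without wild type 1 all 6 had higher values in knockout kidneys, with a median of 0.31, against 0.0071 over all genes. Limma then called 0 of the 6 after adjustment, as 0% of all genes, and 2 of the 6 at an unadjusted p under 0.05, namely Pck1 and G6pc, against 6.82% of all genes (3.49% higher and 3.33% lower in knockout kidneys). The genotypes overlapped for every member, with wild type 1 (0 of 6 did not overlap, against 0.744% of genes) and without it (0 of 6, against 2.14%, or 0.737% with knockout higher).

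**Figure D1:**
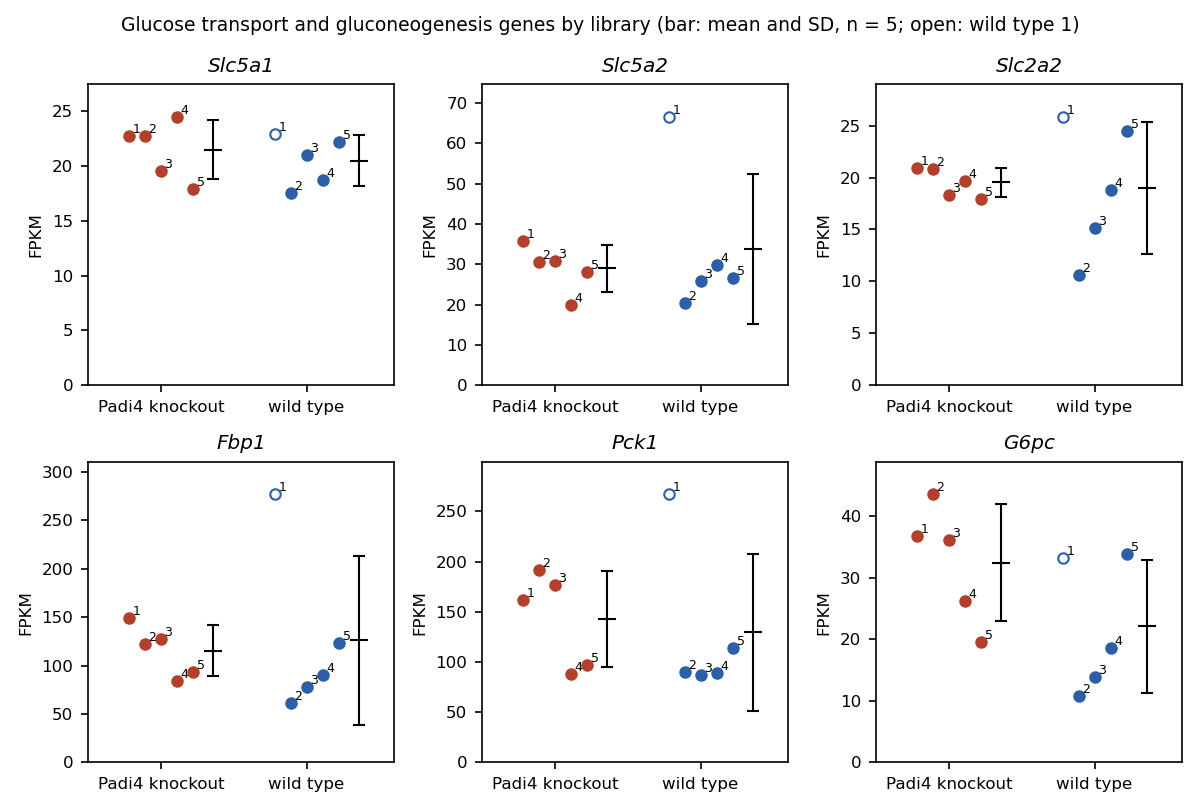
FPKM of each gene (vertical axis) in the 5 Padi4-knockout and the 5 wild-type libraries, numbered by replicate, with the mean and SD of each group beside the points. Wild type 1, drawn open, is the highest library for Slc5a2, Slc2a2, Fbp1 and Pck1, while G6pc is highest in knockout 2 at 43.6 FPKM.

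The glucose uptake genes did not differ between genotypes beyond the spread of the libraries. Positions are those of the deposited table. Slc5a2 (ENSMUSG00000030781), which encodes SGLT2, the target of the gliflozin drugs, lies on the plus strand of chromosome 7 from 128265657 to 128272430. It had 35.7, 30.6, 30.7, 19.9 and 28.2 FPKM in knockout kidneys 1 to 5, against 66.6, 20.3, 25.9, 29.7 and 26.6 FPKM in wild-type kidneys 1 to 5. Apart from wild type 1, knockout 1, 2 and 3 were above and knockout 4 just below all wild-type values. The means were 29.0 FPKM ± 5.8 in knockout and 33.8 FPKM ± 18.6 in wild-type kidneys (SD, n = 5 each). The difference in mean log2(FPKM + 1), knockout minus wild type and called the log2 difference from here on, was -0.11 with a 95% interval of -0.70 to 0.48 (limma adjusted p = 0.981). Its sign rested on wild type 1: without it the difference was 0.16, with an interval of -0.19 to 0.51 (limma adjusted p = 0.845). It was also 0.01 without knockout 4. The gene shares positions with BC017158 on the opposite strand, which reached at most 4.51 FPKM, and the sources used here do not give how the counting treated strand.

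Slc5a1 (ENSMUSG00000011034), the gene of SGLT1, varied least of the 6. It lies on the plus strand of chromosome 5 from 33104219 to 33162870. Knockout kidneys 1 to 5 had 22.8, 22.8, 19.6, 24.5 and 17.9 FPKM, and wild-type kidneys 1 to 5 had 23.0, 17.5, 21.05, 18.7 and 22.2 FPKM. The highest library was only 1.4 times the lowest, and wild type 1 was no exception, at 1.16 times the mean of the other wild-type kidneys. For the remaining 5 genes the highest library was 2.44 to 4.51 times the lowest. The means of 21.5 FPKM ± 2.68 in knockout and 20.5 FPKM ± 2.3 in wild-type kidneys (SD, n = 5 each) differed by 0.06 on the log2 scale, with an interval of -0.17 to 0.30 (limma adjusted p = 0.976). This interval was the narrowest among the 6. Leaving out wild type 1 gave 0.11 (limma adjusted p = 0.853).

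The balance of the SGLT genes followed Slc5a2. The ratio of Slc5a2 to Slc5a1 FPKM was 1.57, 1.35, 1.57, 0.811 and 1.57 in knockout kidneys 1 to 5, against 2.90, 1.16, 1.23, 1.59 and 1.20 in wild-type kidneys 1 to 5. Knockout 4 was the only library with more Slc5a1 than Slc5a2 per length, and wild type 1 had the highest ratio.

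Slc2a2 (ENSMUSG00000027690), the gene of the exit transporter GLUT2, was even across knockout kidneys and spread out among wild-type ones. It lies on the plus strand of chromosome 3 from 28697903 to 28731359. Knockout kidneys 1 to 5 had 20.97, 20.8, 18.4, 19.6 and 17.9 FPKM, against 25.9, 10.6, 15.1, 18.8 and 24.5 FPKM in wild-type kidneys 1 to 5. All knockout values lay inside the wild-type range. The means were 19.5 FPKM ± 1.38 in knockout and 19.0 FPKM ± 6.39 in wild-type kidneys (SD, n = 5 each), and the difference in spread was not tested. The log2 difference was 0.10 with an interval of -0.33 to 0.54 (limma adjusted p = 0.980), and 0.22 without wild type 1 (limma adjusted p = 0.807). It turned to -0.08 without wild type 2, the lowest library. The opposite-strand gene 1700112D23Rik, which shares positions with Slc2a2, reached at most 1.16 FPKM.

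Among the gluconeogenic genes, Pck1 and Fbp1 were the most abundant of the 6. Pck1, the cytosolic phosphoenolpyruvate carboxykinase and a gene controlled by cyclic AMP, insulin and acid load, ranked 254 by mean FPKM among the 13435 genes tested, and Fbp1 ranked 300. The other 4 ranked between 1707 and 2965. Promoter sequences from RefSeq (GRCm38.p6), each from 250 bases before RefSeq's start of the gene to 50 after it, are shown for Pck1, G6pc and Fbp1, the 3 gluconeogenic genes. Their levels varied together, but over the 10 libraries not more closely than those of Slc5a2 and Fbp1 (Pearson r = 0.927). This order rested on wild type 1. Without it r was 0.809 for Slc5a2 and Fbp1, and 0.822 to 0.918 for the pairs among the 3 gluconeogenic genes. Capitals mark matches, on either strand, to short core motifs of the cyclic AMP response element (ACGTCA) and of the TATA box (TATAAA), and a core motif of HNF4 (CAAAGT) was searched as well.
Pck1, chr2:173152823-173153122, plus strand: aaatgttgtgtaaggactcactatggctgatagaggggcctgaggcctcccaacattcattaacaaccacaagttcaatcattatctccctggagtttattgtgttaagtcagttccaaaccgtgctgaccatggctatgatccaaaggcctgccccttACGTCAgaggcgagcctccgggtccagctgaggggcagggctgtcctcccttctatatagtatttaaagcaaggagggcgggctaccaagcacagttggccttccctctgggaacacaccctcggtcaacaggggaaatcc
G6pc, chr11:101367466-101367765, plus strand: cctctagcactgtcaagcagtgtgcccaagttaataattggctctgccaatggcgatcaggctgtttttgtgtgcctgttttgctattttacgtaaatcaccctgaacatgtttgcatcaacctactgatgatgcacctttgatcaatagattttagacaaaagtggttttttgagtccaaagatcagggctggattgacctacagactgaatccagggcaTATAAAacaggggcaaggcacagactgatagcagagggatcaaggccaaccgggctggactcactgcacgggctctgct
Fbp1, chr13:62888233-62888532, minus strand: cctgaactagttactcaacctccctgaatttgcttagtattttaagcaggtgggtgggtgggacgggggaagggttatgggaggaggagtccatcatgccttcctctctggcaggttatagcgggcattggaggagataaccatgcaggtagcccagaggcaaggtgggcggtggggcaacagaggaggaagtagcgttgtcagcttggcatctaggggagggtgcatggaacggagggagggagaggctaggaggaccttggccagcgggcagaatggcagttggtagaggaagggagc

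The Pck1 window held the cyclic AMP response core 91 bases before the RefSeq start. The G6pc window held the TATA box 29 bases before the RefSeq start, and the Fbp1 window held none of the 3 motifs. These distances are from the RefSeq start, which lies 155 bases downstream of the start in the deposited table for G6pc, 25 bases downstream for Pck1 and at the same base for Fbp1. No matches overlapped. Among 32817 promoter windows of this length, 7.505% held the cyclic AMP response core, 14.4% the HNF4 core and 13.6% the TATA box. Among the other members with a window, Slc2a2 held the HNF4 core on the reverse strand at its far end, 250 bases before the start, and Slc5a1 held none. These are matches of letters and not measured sites.

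Pck1 (ENSMUSG00000027513) lies on the plus strand of chromosome 2 from 173153048 to 173159273. It had 161, 191, 177, 87.8 and 96.7 FPKM in knockout kidneys 1 to 5, against 267, 90.0, 87.1, 89.2 and 114 FPKM in wild-type kidneys 1 to 5. Knockout 1, 2 and 3 were above every wild-type kidney but wild type 1, and knockout 4 and 5 lay between wild type 3 and wild type 5. The means were 142.8 FPKM ± 47.5 in knockout and 129.5 FPKM ± 77.8 in wild-type kidneys (SD, n = 5 each). The log2 difference was 0.22 with an interval of -0.49 to 0.94 (limma adjusted p = 0.976; exact two-sided permutation p = 0.524). Without wild type 1 it was 0.52 with an interval of 0.02 to 1.03, and this did not pass after adjustment (limma adjusted p = 0.727; exact two-sided permutation p = 0.127, where the smallest possible is 0.0159).

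Fbp1 (ENSMUSG00000069805), the hepatic and renal fructose bisphosphatase, is found on chromosome 13, minus strand, from 62864753 to 62888282. It had 149, 122, 127, 83.9 and 93.4 FPKM in knockout kidneys 1 to 5, against 277, 61.5, 77.5, 90.4 and 123 FPKM in wild-type kidneys 1 to 5. Wild type 1 alone was far above the rest, at 3.15 times the mean of the other wild-type kidneys, or 2.71 times when the recovered reads were divided by the library total. The means were 115 FPKM ± 26.4 in knockout and 125.9 FPKM ± 87.6 in wild-type kidneys (SD, n = 5 each). The mean FPKM was thus lower in knockout kidneys, while the difference of mean log2 values was 0.06, with an interval of -0.69 to 0.81 (limma adjusted p = 0.996). This sign did not hold: the difference was -0.04 with knockout 1 left out, and -0.14, -0.06 and -0.00438 in the fits that left out wild type 2, wild type 3 or wild type 4. Without wild type 1 it was 0.40 with an interval of -0.07 to 0.86 (limma adjusted p = 0.731).

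G6pc (ENSMUSG00000078650), the catalytic subunit of glucose phosphatase and the last step before glucose leaves the cell, had the largest difference of the 6. It lies on the plus strand of chromosome 11 from 101367561 to 101377903. Knockout kidneys 1 to 5 had 36.8, 43.6, 36.1, 26.3 and 19.5 FPKM, against 33.3, 10.8, 13.9, 18.7 and 33.8 FPKM in wild-type kidneys 1 to 5. Knockout 1, 2 and 3 were above every wild-type kidney, while knockout 4 and 5 were below wild type 1 and 5. The means were 32.5 FPKM ± 9.51 in knockout and 22.1 FPKM ± 10.8 in wild-type kidneys (SD, n = 5 each), a ratio of 1.47. The log2 difference was 0.62 with an interval of -0.07 to 1.31, and it did not pass (limma adjusted p = 0.976; exact two-sided permutation p = 0.119, where the smallest possible is 0.00794). With wild type 1 left out it was 0.79 with an interval of 0.13 to 1.46, again with no call (limma adjusted p = 0.727; exact two-sided permutation p = 0.0635). It was 0.78 without knockout 5 and 0.80 without wild type 5, where the unadjusted limma p was also under 0.05. In these 2 fits 474 and 479 of the 13435 genes had such a p.

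**Figure D2:**
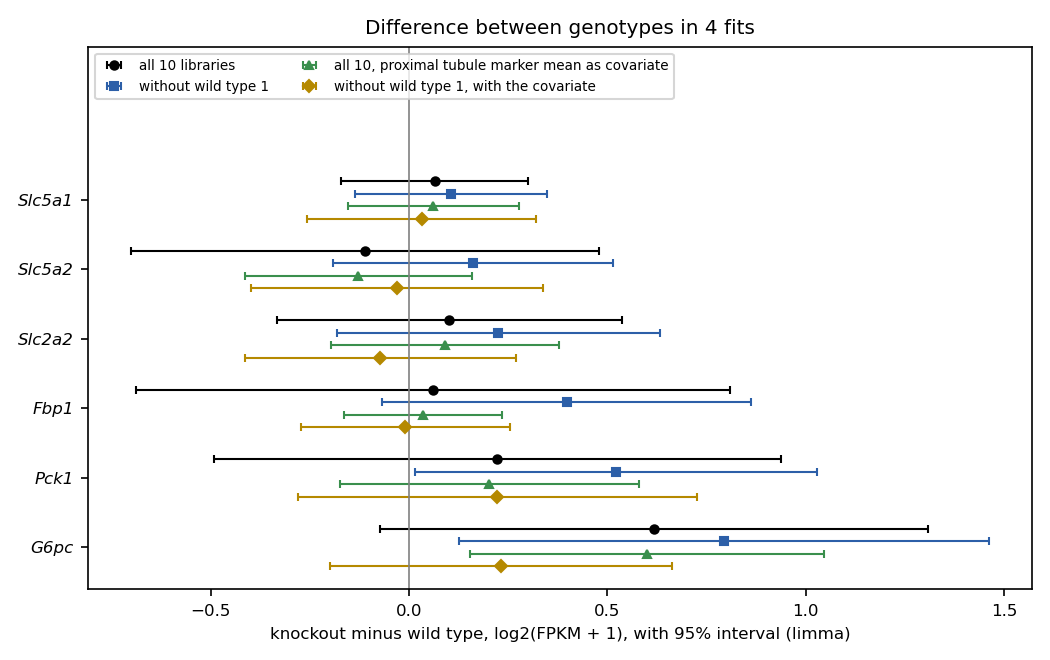
Difference in mean log2(FPKM + 1), knockout minus wild type, of each gene with its 95% limma interval, in 4 fits: all 10 libraries, without wild type 1, and each of these with the mean of the proximal tubule markers as a covariate. The G6pc point moves between 0.79 without wild type 1 and 0.23 when the covariate is added there, and the Slc5a1 points stay near 0.

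The members varied together across libraries, and Slc5a1 was in the pair with the lowest correlation. Over the 10 libraries all 15 pairs of members had a Pearson r above 0, with a median of 0.67, and 0.63 over the 9 libraries without wild type 1. For Slc5a2 and Fbp1, r was 0.927 and Spearman's rho 0.879 (permutation p = 0.00033 and 0.00145, adjusted over the 15 pairs p = 0.00315 and 0.0217), and r was 0.863 without the 2 libraries farthest from the median. For Fbp1 and Pck1, r was 0.899 and rho 0.842 (permutation p = 0.00042 and 0.0038, adjusted p = 0.00315 and 0.0285), and r was 0.864 without the 2 farthest. At the other end Slc5a1 and Slc5a2 had r = 0.269 and rho = 0.236 (permutation p = 0.488 and 0.512, adjusted p = 0.488 and 0.512), and r = 0.0239 without the 2 farthest. Of the 15 pairs, 8 passed an adjusted p of 0.05 for r. The points of a library share its depth, its scaling and its cell makeup.

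Markers of the proximal tubule varied across the libraries as well. All 15 listed markers were measured, among them, as examples of the list, the endocytic receptor genes Lrp2 and Cubn and the phosphate transporter gene Slc34a1, and their mean log2(FPKM + 1) ranged from 6.12 to 6.70 in knockout and from 5.69 to 7.73 in wild-type kidneys. Wild type 1 had the top value, in the mean and in 14 of the 15 genes, and the other wild-type kidneys reached at most 6.61. In bulk tissue, fewer proximal tubule cells and less RNA per cell cannot be told apart. Without wild type 1 all 15 markers had higher values in knockout kidneys, with a median difference of 0.36 and 0 calls by limma after adjustment, and 5 at an unadjusted p under 0.05, against 6.82% of all genes (3.49% higher). With all libraries 9 of the 15 did, with a median of 0.06.

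The coupling to these markers was closest for Fbp1 and weakest for Slc5a1. Fbp1 had r = 0.983 and rho = 0.976 with the marker mean over the 10 libraries (permutation p = 1e-05 and 4e-05, adjusted over the 18 relations computed between members and marker lists p = 0.00018 and 0.00072), and r = 0.948 without the 2 libraries farthest from the median. Slc5a2 had r = 0.894 and rho = 0.770 (permutation p = 0.00295 and 0.0123, adjusted p = 0.0133 and 0.0367), but r = 0.501 without wild type 1 and 2, so its relation rests in part on those. Pck1 had r = 0.860 and rho = 0.806 (permutation p = 0.00098 and 0.00696, adjusted p = 0.00882 and 0.0313), and r = 0.743 without the 2 farthest. Slc2a2 had r = 0.790 and rho = 0.855 (permutation p = 0.0146 and 0.00336, adjusted p = 0.0527 and 0.0202), and r = 0.775 without the 2 farthest. G6pc had r = 0.689 and rho = 0.782 (permutation p = 0.0214 and 0.0106, adjusted p = 0.0642 and 0.0367), with r = 0.874 without the 2 farthest and 0.915 over the 9 libraries without wild type 1. Slc5a1 had r = 0.506 and rho = 0.576 (permutation p = 0.128 and 0.087, adjusted p = 0.209 and 0.157), and r = 0.289 without the 2 farthest.

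**Figure D3:**
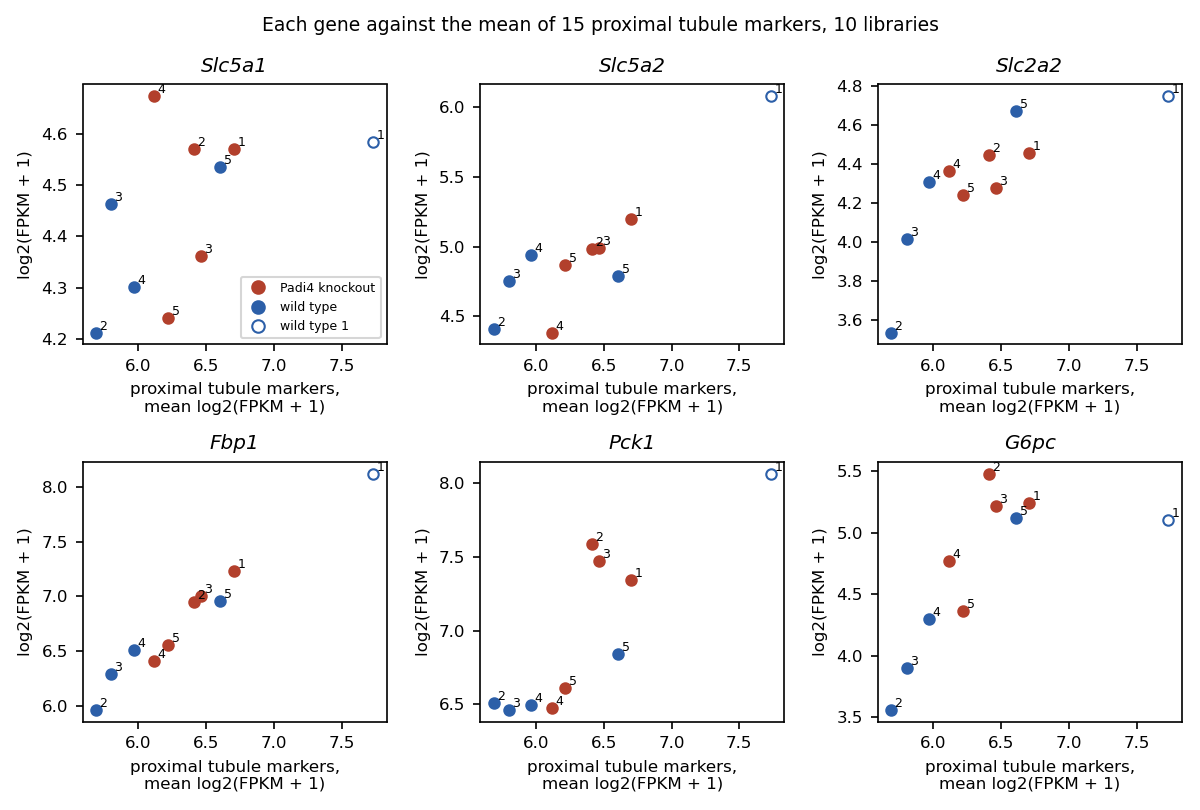
Log2(FPKM + 1) of each gene (vertical axis) against the mean log2(FPKM + 1) of the 15 proximal tubule markers (horizontal axis) in the 10 libraries, with knockout in red, wild type in blue and wild type 1 open. Fbp1 lies along a line through all libraries, G6pc lies along one that wild type 1 leaves, and Slc5a1 is scattered with r = 0.506.

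With the marker mean as a covariate in the fit over all genes, the genotype differences of the members became -0.13 for Slc5a2, 0.06 for Slc5a1, 0.09 for Slc2a2, 0.20 for Pck1, 0.04 for Fbp1 and 0.60 for G6pc, with 0 calls by limma after adjustment. G6pc alone among the 6 had an unadjusted p under 0.05, at 0.013 (limma adjusted p = 0.830), against 5.98% of all genes (3.32% higher in knockout kidneys). Without wild type 1 and with the covariate the G6pc difference was 0.23 with an interval of -0.20 to 0.66 (limma adjusted p = 0.9996), the Pck1 difference 0.22 and those of the other 4 between -0.07 and 0.03. In that fit 0 of the 6 had an unadjusted p under 0.05, against 3.16% of all genes. The G6pc difference with the covariate thus depended on wild type 1.

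Ratios within a library set G6pc against the other enzymes. Its ratio to Fbp1 FPKM was 0.247, 0.357, 0.284, 0.313 and 0.209 in knockout kidneys 1 to 5, against 0.120, 0.175, 0.180, 0.206 and 0.275 in wild-type kidneys 1 to 5. All knockout ratios were above wild type 1 to 4, and wild type 5 lay among them. Its ratio to Pck1 was 0.202 to 0.299 in knockout and 0.120 to 0.298 in wild-type kidneys, with wild type 4 and 5 inside the knockout range. These ratios were set out after the values had been seen and were not tested.

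Other cell types that express these genes were looked for by their markers. Fat cells also use Pck1, to make glycerol for fat, and adipose markers varied widely: the mean of 6 measured genes ranged from 0.543 to 4.30 in knockout and from 0.829 to 3.19 in wild-type kidneys, and the summed level of all 8 listed from 3.15 to 359 FPKM in knockout and from 8.395 to 134 FPKM in wild-type kidneys. The highest adipose value was in knockout 5, where Pck1 was 96.7 FPKM, below knockout 1, 2 and 3. Pck1 had r = 0.203 and rho = 0.406 with the adipose mean (permutation p = 0.572 and 0.251, adjusted p = 0.605 and 0.316). Without the 2 libraries farthest from the median, knockout 4 and 5, r was 0.343 for Pck1. For the other members it was then 0.289 (Slc5a2) to 0.854 (Slc5a1), with 0.733 for G6pc, against -0.081 to 0.421 over all libraries. Whether fat cells have a part in the member values was not tested. All 6 adipose markers had higher means in knockout kidneys, with a median difference of 0.50 and 0 calls. Of these, Plin1 passed the filter of 1 FPKM only through the knockout kidneys, with means of 2.15 FPKM in knockout and 0.794 FPKM in wild-type kidneys. With the adipose mean as a covariate the Pck1 difference was 0.18 and the G6pc difference 0.56.

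Liver cells share Pck1, Fbp1, G6pc and Slc2a2, gut epithelium Slc5a1 and Slc2a2, and beta cells of the pancreas Slc2a2. Of 8 liver markers, Alb, Apoa1 and Cps1 lay below the mean of 1 FPKM, Alb at 0.402 FPKM in knockout and 0.636 FPKM in wild-type kidneys, and the mean of the 5 measured ranged from 2.44 to 2.98 in knockout and from 2.19 to 3.60 in wild-type kidneys. Of these 5, 3 had higher means in knockout kidneys, with a median difference of 0.05. The summed level of all 8 was 27.0 to 48.4 FPKM in knockout and 21.3 to 76.0 FPKM in wild-type kidneys. Alpi and Sis of the intestine and Ins1, Ins2, Gcg and Prss1 of the pancreas were listed at 0 in every library. Of the 6 intestinal markers only Vil1, a brush border gene that proximal tubules also express, was tested, at a difference of -0.04, and of the 7 pancreatic markers only Cela1, at 0.29. With wild type 1 left out Vil1 was 0.09 and Cela1 0.46. In that fit 4 of the 5 liver markers were higher, with a median of 0.15, against 0.0071 over all genes. There were 0 calls and 2 liver markers at an unadjusted p under 0.05, against 6.82% of all genes (3.49% higher).

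Injured tubule markers had the opposite sign. Their mean ranged from 7.35 to 7.86 in knockout and from 7.61 to 8.05 in wild-type kidneys, and all 9 had lower mean log2 values in knockout kidneys, with a median difference of -0.19 and 0 calls (8 of 9 and -0.23 without wild type 1). Lcn2, the gene of NGAL and the marker with the smallest p, differed by -0.50. G6pc had r = -0.821 and rho = -0.842 with this mean (permutation p = 0.00267 and 0.00337, adjusted p = 0.0133 and 0.0202), and r = -0.692 without the 2 farthest libraries. For the other 5 members r lay between -0.618 and -0.398, and none passed after adjustment. Over the 9 libraries without wild type 1, r was -0.867 for Fbp1, -0.848 for G6pc, -0.802 for Pck1, -0.789 for Slc5a2, -0.707 for Slc2a2 and -0.567 for Slc5a1, so the higher place of G6pc rested on wild type 1. Whether injury has a part in the member values was not tested.

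Loop, distal tubule and collecting duct markers split evenly, with 4 of 8 higher in knockout kidneys and a median of 0.05, and 5 of 8 with a median of 0.12 without wild type 1. Macrophage markers were higher for 4 of 6, with a median of 0.04 that was -0.13 without wild type 1, and fibroblast markers for 6 of 6, with a median of 0.15 that was 0.03 without it. None of these 3 lists had a call. The macrophage gene Adgre1, which encodes F4/80, went the other way from its list's median, with 23.0 FPKM ± 1.7 in knockout and 30.1 FPKM ± 7.29 in wild-type kidneys (SD, n = 5 each) and a log2 difference of -0.35 (limma adjusted p = 0.976). Without wild type 1 the Adgre1 difference was -0.46 (limma adjusted p = 0.594), and the genotypes did not overlap, as in 2.14% of genes.

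The rest of the pathway was read from 48 further genes in 5 lists, of which 42 were tested and 0 were called in either direction. With all libraries 30 had higher and 12 lower means in knockout kidneys, with a median difference of 0.08, and without wild type 1 the counts were 33 and 9, with a median of 0.18. At an unadjusted p under 0.05 there were 3 higher and 1 lower, against 2.05% and 2% of all genes. Again 3 higher and 1 lower were seen with wild type 1 left out, against 3.49% and 3.33% of all genes, but these were mostly other genes. With all libraries they were Slc2a10, Slc2a8, Fbp2 and, lower, Irs2. Without wild type 1 they were Slc5a10, Slc37a4, Slc2a10 and, lower, Creb1. The differences without wild type 1 were 0.25 for Slc2a8, 0.35 for Fbp2 and -0.16 for Irs2. The counts of pathway genes were not stable, and the counts over all 13435 genes moved as well. Left were 1 gene without knockout 1 (364 of all genes), 1 without knockout 3 (308) and 2 without knockout 2 (440), wild type 2 (446) or wild type 5 (479). Without knockout 4 there were 8 (5 higher, 3 lower), against 1245 of all genes. With array weights there were 11, against 1992 of all genes, and with the proximal tubule covariate 7, against 5.98% of all genes. With that covariate and without wild type 1 there was 1, against 3.16%.

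Among sodium-coupled transporters 3 of 5 were tested and all had higher means in knockout kidneys. Slc5a10 (SGLT5, a carrier of mannose and fructose) measured 37.3 FPKM ± 7.7 in knockout and 30.8 FPKM ± 9.77 in wild-type kidneys (SD, n = 5 each), which is a difference of 0.29 (limma adjusted p = 0.976). Its positions overlap those of Grap and Fam83g on the opposite strand, at up to 9.62 FPKM. Slc5a9 (SGLT4) differed by 0.09 and Pdzk1ip1, whose product MAP17 is a partner that SGLT2 needs for transport, by 0.06. With wild type 1 left out the differences were 0.45 for Slc5a10 (limma adjusted p = 0.727), 0.24 for Slc5a9 and 0.18 for Pdzk1ip1. Pdzk1ip1 was abundant, at 142 FPKM ± 29.8 in knockout and 138 FPKM ± 37.0 in wild-type kidneys (SD, n = 5 each). Slc5a4a and Slc5a4b lay below the mean of 1 FPKM.

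In the family of facilitative transporters 7 of 9 were tested, with 6 higher and 1 lower. The smallest p belonged to Slc2a10 (GLUT10), at 1.39 FPKM ± 0.167 in knockout and 0.914 FPKM ± 0.309 in wild-type kidneys (SD, n = 5 each), and to the intracellular transporter Slc2a8 (GLUT8), at 5.88 FPKM ± 0.748 in knockout and 4.52 FPKM ± 1.07 in wild-type kidneys. Their log2 differences were both 0.33, and neither passed (limma adjusted p = 0.976). Slc2a10 passed the filter of 1 FPKM only through the knockout kidneys, so its place among the genes tested is not independent of its difference. At a mean of at least 5 FPKM, which leaves it out, 2 pathway genes were higher and 1 lower at an unadjusted p under 0.05. All genes then gave 148 higher and 124 lower of 8470. Slc2a4, the insulin-dependent GLUT4 of fat and muscle, differed by 0.25. Slc2a1 (GLUT1), the basal transporter named after its value was seen, was the 1 with a lower mean (-0.15, and -0.07 without wild type 1), at 22.4 FPKM ± 3.41 in knockout and 25.1 FPKM ± 5.42 in wild-type kidneys (SD, n = 5 each).

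Of 11 other gluconeogenic enzymes and partners 10 were tested, 9 with higher and 1 with lower means. Fbp2, the isoform known from muscle, measured 15.4 FPKM ± 2.74 in knockout and 11.3 FPKM ± 3.23 in wild-type kidneys (SD, n = 5 each), which is a difference of 0.43 (limma adjusted p = 0.976). Unlike Fbp1 it was not high in wild type 1, at 8.64 FPKM. Pck2, the mitochondrial carboxykinase, differed by 0.14, and Slc37a4, which carries glucose phosphate to G6pc in the endoplasmic reticulum, by 0.25. Slc37a4 was 0.40 without wild type 1 (limma adjusted p = 0.727). Pcx (pyruvate carboxylase), named after its values were seen, was highest in wild type 1 as Fbp1 was. Pcx averaged 46.0 FPKM ± 13.8 in knockout and 45.7 FPKM ± 33.1 in wild-type kidneys (SD, n = 5 each), with 104 FPKM in wild type 1, and its log2 difference was 0.16, or 0.51 without that library.

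Precursor supply genes numbered 11, all tested, 8 with higher and 3 with lower means. The glycerol phosphate dehydrogenase gene Gpd1 differed by 0.23 and, without wild type 1, by 0.40, and the lactate carrier gene Slc16a1 by -0.13 and, without wild type 1, by 0.06. Of 12 regulators 11 were tested, 4 with higher and 7 with lower means. Irs2, an adaptor of the insulin receptor, measured 9.55 FPKM ± 0.724 in knockout and 11.1 FPKM ± 0.794 in wild-type kidneys (SD, n = 5 each), which is a difference of -0.20 (limma adjusted p = 0.976). Creb1, the factor that binds cyclic AMP response elements, differed by -0.19 and Insr, the insulin receptor gene, by -0.13. Hnf4a, a factor that activates proximal tubule genes, was named after its value was seen and differed by 0.17 and, without wild type 1, by 0.29.

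**Figure D4:**
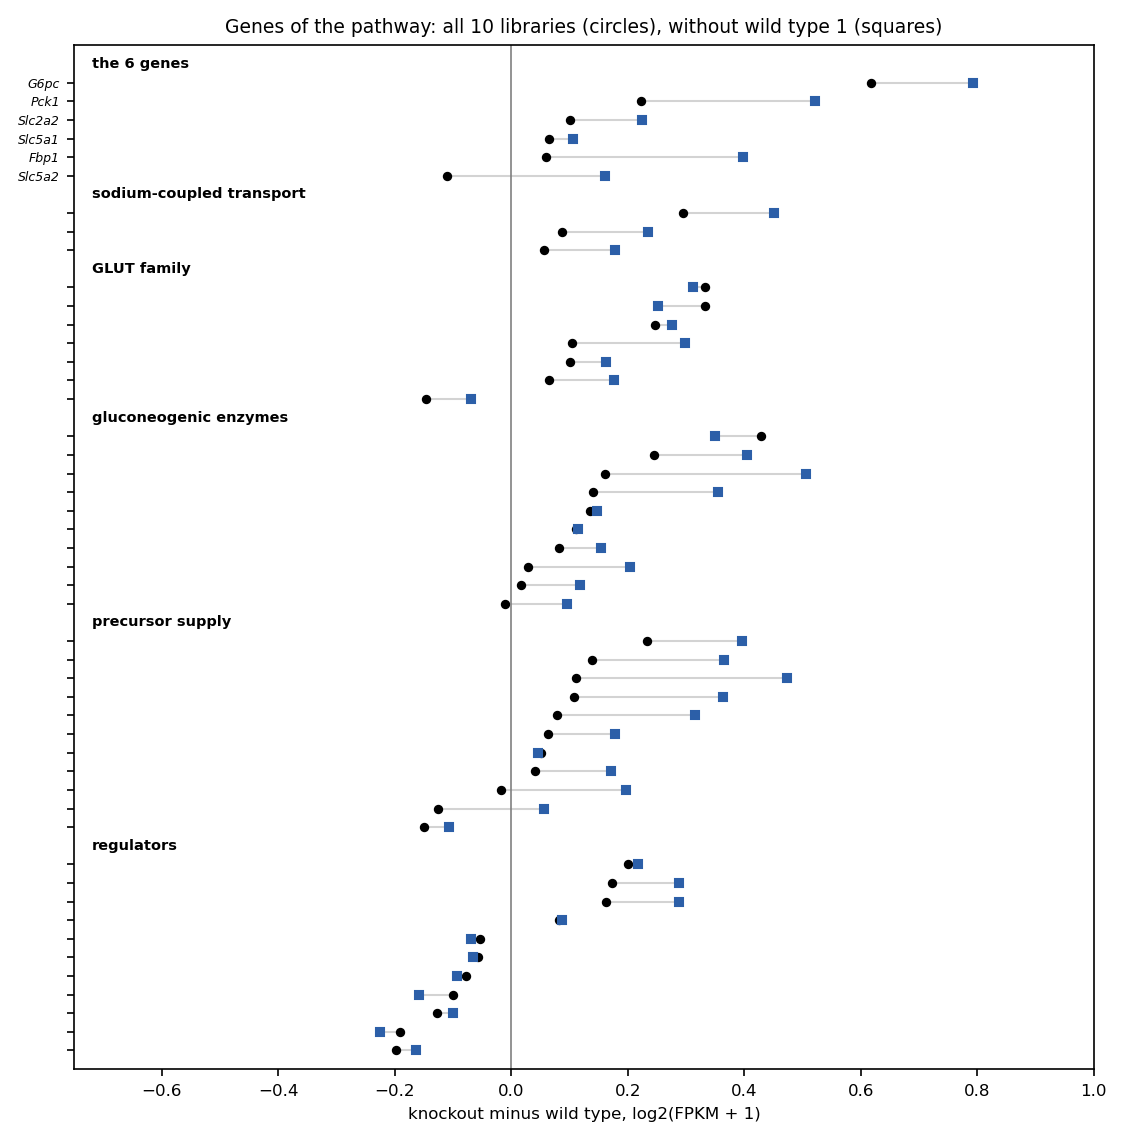
Difference in mean log2(FPKM + 1), knockout minus wild type, of the 6 genes and of the 42 tested genes of 5 pathway lists, with all 10 libraries (circles) and without wild type 1 (squares), sorted within each list by the circles. Most squares lie to the right of their circles, and G6pc is the point farthest from 0 in both.

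The genes with the pattern most like each member over the 10 libraries were sought among all genes tested, apart from clone, model and pseudogene symbols. The likeness is the Pearson r of log2(FPKM + 1), picked as the highest among many genes and given without a p. For Fbp1 they were Hgd (r = 0.9945), Gstz1 (0.990) and Bpnt1 (0.9855), where Hgd and Gstz1 break down tyrosine, and r was at least 0.970 without wild type 1. For Slc5a2 they were Acsm1 (0.984), Bckdha (0.979) and the villin gene Vil1 (0.976), and r stayed between 0.929 and 0.9465 without wild type 1. For Slc2a2 they were Folh1 (0.982), the channel gene Trpc1 (0.9565) and the glycerol channel gene Aqp7 (0.955), at least 0.947 without wild type 1. For Pck1 they were Nat8f1 (0.9755), the dicarboxylate transporter gene Slc13a3 (0.972), which is on the proximal tubule list, and the peroxisomal thiolase gene Acaa1b (0.960), at least 0.953 without wild type 1. For G6pc they were Immp2l (0.946), Fbxo40 (0.940) and Sgk2 (0.940), at least 0.942 without wild type 1. For Slc5a1 they were Wwp1 (0.983), the myosin gene Myo6 (0.980) and Ccser2 (0.959), at least 0.955 without wild type 1. Of these 18 genes none was nearest to more than 1 member.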

How the data were processed

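The submitters' processing notes name HISAT2 2.0.5, an aligner. TRIzol was used to extract the RNA, per the labels. The sources used here do not give the counter, its use of strand, the annotation or the build; 98.33% of the gene identifiers found in a GRCm38 annotation had the same coordinates there. No unit is named for the deposited values, which are taken to be FPKM that the authors computed: value times gene length, in steps of 1 read per library, was whole within 0.01 for 100% of values above 0. The implied totals are proportional to size factors, so libraries were already scaled. Gene length is the deposited value in bases.

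A mean of 1 FPKM or more was required, and the 13435 genes left were fitted with limma 3.58.1 (R 4.3.3, variance trend) on log2(FPKM + 1), a scale that understates changes of low genes, with genotype as the only term and Benjamini-Hochberg adjustment over all genes. The design named a count test for raw counts; FPKM took limma. The method was tested on simulated reads, drawn for each gene on its own with the same spread setting for all genes. No simulated library was set apart, so this test does not cover a library such as wild type 1. Permutation tests used scipy 1.17.1, exact for genotype and with 100000 resamples for correlations. Groups and replicate numbers came from sample titles. Named were all members, the 3 genes of each pathway list with the smallest p, and the 3 genes most like each member; the text says which others were added, the marker genes are examples of their lists, and some named items are not reported here. The members, lists and tests were chosen with earlier results of these data known. No library pair agreed within sampling noise (lowest chi-square per gene 10.7). Depth varied little, so the spread between libraries sets the precision. Alternatives were another pseudocount, filters, scalings, limma-voom, array weights, covariates, a replicate block and leaving out each library.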

Additional observations from a re-analysis of the deposited data

Results flagged for a closer look

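Of 40 groups of 5 values examined for the members and lists, 6 held a library far from the other 4, where chance gives about 1 in 20, and genes that vary together are not separate cases. Wild type 1 was far above the other wild-type kidneys for Slc5a2 at 66.6 FPKM, Fbp1 at 277 FPKM and Pck1 at 267 FPKM. Its mean log2(FPKM + 1) was also apart for the facilitative transporters, at 2.28, and for macrophage markers, at 4.72, which was low. Knockout 4 was low for the intestinal list, at 5.28, a value of Vil1 alone. The parts that library quality and cell makeup have in these values were not tested.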

How the results depend on the processing

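Slc5a1, Pck1 and G6pc kept a higher value in knockout kidneys under all 21 alternatives. The filters and the replicate block leave each difference as it is, so they could not change a sign. No alternative called a member, a pathway gene or any gene (lowest member limma adjusted p = 0.274, for G6pc with array weights). Leaving out each library in turn moved the log2 difference between 0.01 and 0.12 for Slc5a1, -0.26 and 0.16 for Slc5a2, -0.0786 and 0.22 for Slc2a2, -0.14 and 0.40 for Fbp1, 0.10 and 0.52 for Pck1 and 0.41 and 0.80 for G6pc. Slc5a2 turned to 0.15 with array weights, and to 0.0147 without knockout 4. Fbp1 turned to -0.0130 with the adipose covariate. Added after seeing the data were scaling by library total, which gave 0.64 for G6pc, and the proximal tubule covariate without wild type 1, which gave 0.03, -0.03, -0.07, -0.01, 0.22 and 0.23 for Slc5a1, Slc5a2, Slc2a2, Fbp1, Pck1 and G6pc. With limma-voom on the recovered reads G6pc was 0.67, with an unadjusted p of 0.041, where 415 of the 13435 genes had a p under 0.05. With array weights G6pc was 0.91 and Pck1 0.62, with unadjusted limma p of 0.0063 and 0.023. Whether these 2 genes crossed an unadjusted p of 0.05 with all libraries thus depended on the fit. The count of genes at an unadjusted p under 0.05, 544, became 916 without wild type 1, 1245 without knockout 4, 308 without knockout 3, 1992 with array weights 1096 of 27780 genes without a filter and 272 of 8470 genes at a mean of at least 5 FPKM. The libraries did not resemble each other by replicate number. Same-numbered libraries had correlations of their deviations between -0.344 and 0.306, and 1 of 5 knockout libraries was nearest to its own number. Whether the numbers stand for a pairing in the design cannot be told from these correlations. The replicate block holds each number once per genotype, so it could not move the differences. They stayed at 0.0645 for Slc5a1, -0.110 for Slc5a2, 0.102 for Slc2a2, 0.0597 for Fbp1, 0.223 for Pck1 and 0.618 for G6pc. With the block there were 0 calls, and 1 pathway gene in place of 4 had an unadjusted p under 0.05, as did 435 of all genes in place of 544. The precision of each difference is given by its interval, set by 5 libraries a group.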
